A study of Arabidopsis thaliana with 6 samples.

Results

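The 7 heat shock protein genes HSP70, HSP70T-2, HSP90.1, HSP17.4, HSP17.6II, HSP23.6-MITO and HSP21 of Arabidopsis thaliana were taken by symbol from a table of 27444 protein-coding nuclear genes, and all 7 symbols were found. Their H3K27me1 and 5mC domains were described from young leaves of the accession Columbia-0, grown in soil at 22.5 °C with 8 h of light and 16 h of dark. The labels name 2 H3K27me1 chromatin immunoprecipitation (ChIP) samples, 2 samples of immunoprecipitated methylated DNA (MeDIP) with an antibody to 5mC, and 2 MeDIP input samples without antibody; no heat treatment is named. What was analysed is 1 list of enriched domains for each mark, a domain being a stretch of genome called as enriched, with its position and its number of reads. The lists give 1 value per domain and none per replicate, so no replicate error could be computed, and no input signal was used.

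Heat shock proteins are molecular chaperones, which keep other proteins from aggregating and help them to fold. HSP70 and HSP90 proteins use ATP to do so, whereas small heat shock proteins bind unfolding proteins without ATP. Many of their genes are held at low activity at ordinary temperature and are switched on quickly by heat shock factors, transcription factors that bind heat shock elements in promoters. H3K27me1, a histone mark placed by ATXR5 and ATXR6, is best known from silent heterochromatin, where it is found together with 5mC. Expression was not measured here.

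Each of the 7 genes carried 1 H3K27me1 domain over most of its body, and 6 of the 7 had no 5mC domain in the body. The share of the body in H3K27me1 domains, from annotated start to end, ran from 50.6% in HSP23.6-MITO to 80.0% in HSP17.4, with a median of 75.8%. The median over all protein-coding genes was 0%. An H3K27me1 domain touched 22.3% of all protein-coding genes, and 7.62% had at least 50% of the body covered, or 8.6% of those between the lengths of the shortest and the longest of the 7. Because the genes were put together with these lists known, their 7 of 7 is a description and was not tested. With only the domains above the median read density of the list, 4 of the 7 were touched, and with only domains of at least 1000 bp 3 were. No share of all genes is given for these counts. The list's median of 447 reads per kb lay close to HSP21, kept with 449, and HSP23.6-MITO, left out with 437. The small heat shock protein genes among the 7 are only 750 to 1185 bp long, which limits domains of at least 1000 bp inside them. HSP70T-2 was the exception for 5mC, a mark whose domains touched 15.6% of protein-coding genes, and both marks touched 6.96%.

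**Figure D1:**
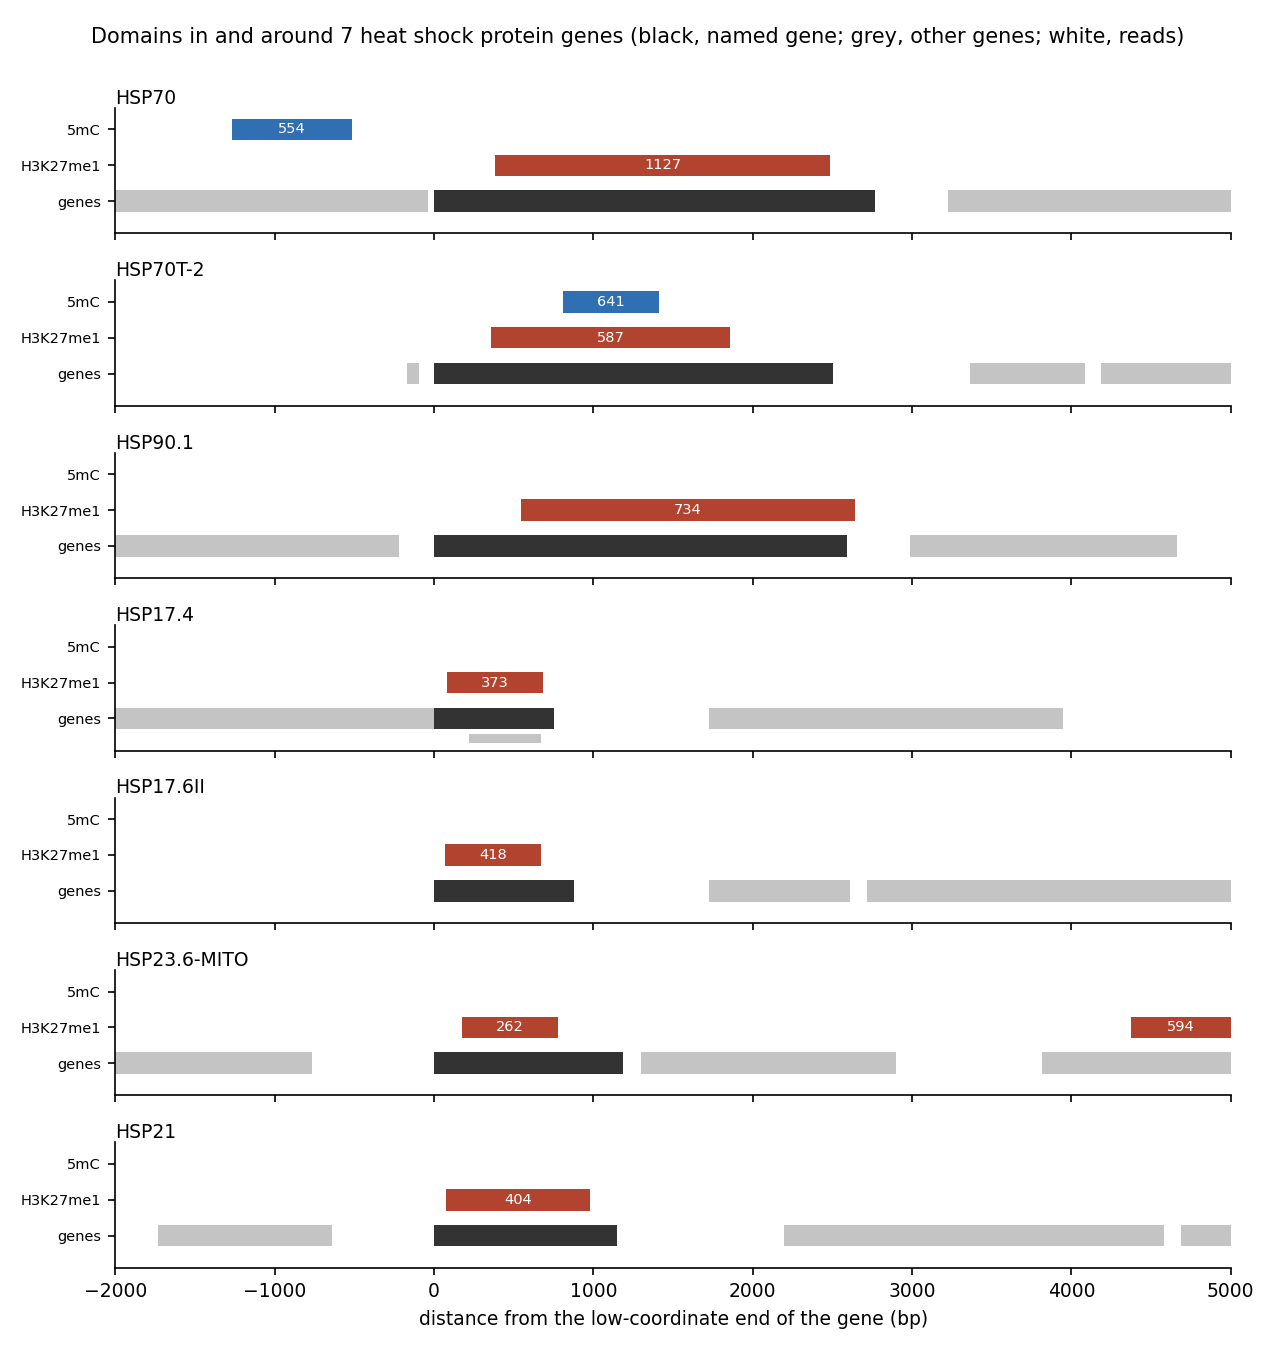
Genes and domains from 2000 bp before to 5000 bp after the low-coordinate end of each of the 7 genes, on a horizontal axis in bp; black bars are the named genes, grey bars other annotated genes, and the number in white is the domain's reads. Each gene holds 1 H3K27me1 domain (red), a 5mC domain (blue) lies inside HSP70T-2 and beside HSP70, and the next H3K27me1 domain, 3190 bp beyond HSP23.6-MITO, is cut off at the right edge.

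Among the large chaperones, HSP70 had the H3K27me1 domain with the most reads. HSP70 (AT3G12580) encodes a cytosolic HSP70 that is induced by heat. Its domain, at chr3:3991501-3993600 (TAIR10), was 2100 bp wide and held 1127 reads (95% Poisson interval 1062 to 1195, which covers counting error only, here and below). It covered 75.8% of the 2770 bp gene and left 384 bp free at the low-coordinate end and 286 bp at the high-coordinate end. The gene table gives no strand, so that start and end of transcription were not told apart. The domain's read density of 537 reads per kb was above that of 69.9% of the H3K27me1 list.

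HSP70T-2 (AT2G32120) encodes a shorter, truncated member of the HSP70 family, and both marks met in it. The H3K27me1 domain at chr2:13651801-13653300 was 1500 bp wide with 587 reads (540 to 636) and covered 59.9% of the 2504 bp gene. The 5mC domain at chr2:13652251-13652850 was 600 bp wide with 641 reads (592 to 693) and covered 24.0% of the gene. The 5mC domain lay wholly within the H3K27me1 domain, with 450 bp of H3K27me1 on either side of it. Read numbers of the marks come from separate libraries and were not compared with each other.

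This nesting was set beside other genes of like size. Protein-coding genes within the length range of the 7, from 750 to 2770 bp, held 1164 5mC domains wholly inside the body. Of these, 401 (34.5%) touched an H3K27me1 domain, and 247 of the 401 (61.6%) lay wholly in H3K27me1. Among genes of that length range with at least 50% of the body in H3K27me1, 38.8% had a 5mC domain in the body. All of these sets were taken without regard to place along the chromosome.

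HSP90.1 (AT5G52640) encodes the heat-inducible cytosolic HSP90. Its H3K27me1 domain, at chr5:21353101-21355200, was as wide as that of HSP70, 2100 bp, but held 734 reads (682 to 789), and these counting intervals did not overlap. The domain covered 79.0% of the 2591 bp gene. It left 544 bp free at the low-coordinate end and reached 53 bp past the high-coordinate end, less than the 300 bp window in which the list was called. In the other 6 genes the domain ended inside the gene at both ends.

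The 4 small heat shock protein genes are short, and their domains were 600 or 900 bp wide. HSP17.4 (AT3G46230) encodes a cytosolic class I protein. Its domain, at chr3:16984201-16984800, held 373 reads (336 to 413) and left 83 and 67 bp of the 750 bp gene free. The long non-coding RNA gene AT3G07365 is annotated inside HSP17.4 and lay wholly in this domain, so that the mark cannot be assigned to either gene.

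HSP17.6II (AT5G12020) encodes a cytosolic class II protein and had the densest domain of the 7 genes. The domain, at chr5:3882301-3882900, held 418 reads (379 to 460), or 697 reads per kb, more than 87.7% of the list. It covered 68.1% of the 881 bp gene. The next gene of the same class, HSP17.6A (AT5G12030), starts 845 bp away, has a length of 882 bp and had no base in either list.

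Small heat shock proteins of the organelles were covered as well. HSP23.6-MITO (AT4G25200) encodes a mitochondrial protein, and its domain at chr4:12917101-12917700 held 262 reads (231 to 296). This was the lowest share of the 7, 50.6% of a 1185 bp gene, with 175 bp free at the low-coordinate end and 410 bp at the high-coordinate end. HSP21 (AT4G27670) encodes a chloroplast protein. Its domain at chr4:13818901-13819800 was 900 bp wide with 404 reads (366 to 445) and covered 78.5% of 1147 bp.

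Read numbers were then set beside H3K27me1 domains of the same width that lie wholly inside protein-coding genes, since reads grow with width. Among 1937 such domains of 600 bp, the median was 228 reads (quartiles 207 and 259). HSP17.6II exceeded 99.4% of them, HSP17.4 98.5% and HSP23.6-MITO 76.8%. HSP21 exceeded 82.4% of 1025 domains of 900 bp, whose median was 336 reads. HSP70 exceeded 86.4% of 44 domains of 2100 bp, with a median of 890 reads, whereas HSP90.1 exceeded 13.6% of these. The HSP90.1 domain reached 53 bp past its gene and so is not itself among the 44. HSP70T-2 lay near the middle, above 46.4% of 179 domains of 1500 bp with a median of 596 reads. Its 5mC domain lay above 55.3% of 340 genic 5mC domains of 600 bp, whose median was 608 reads. Among all H3K27me1 domains of the same width, inside genes or not, each of the 7 ranked lower. HSP90.1 then exceeded 4%, HSP70 47.3% and HSP17.6II, the highest, 96.0%. The 7 genes thus did not share a level of H3K27me1 reads at a given width.

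**Figure D2:**
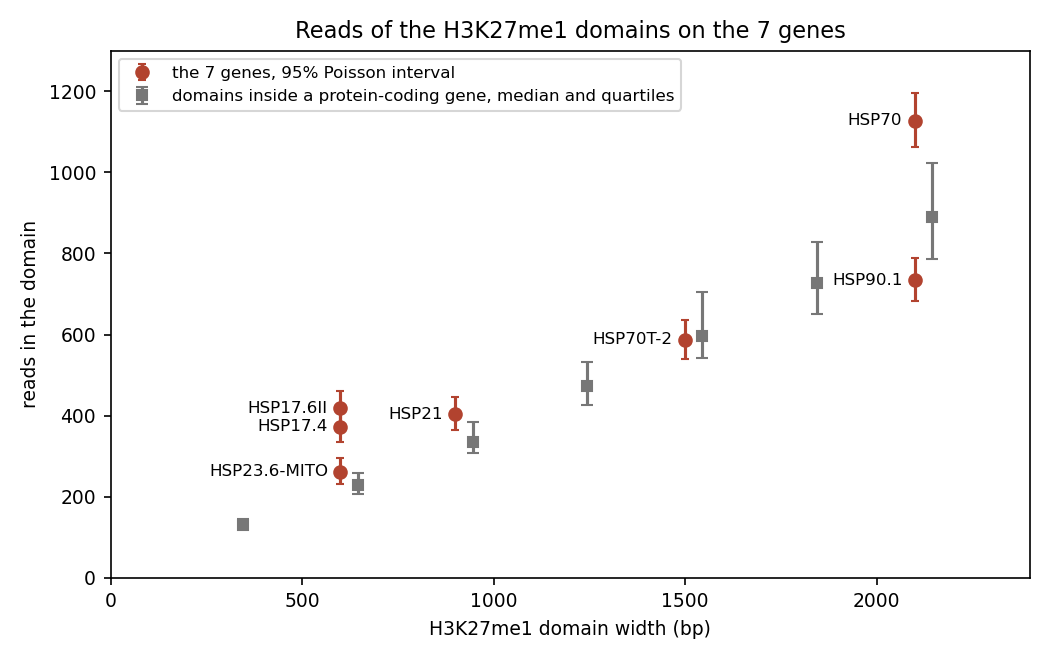
Reads in the H3K27me1 domain of each of the 7 genes (red, with 95% Poisson intervals) against the width of the domain in bp, beside the median and quartiles of domains that lie inside protein-coding genes (grey, drawn slightly to the right of their width). HSP17.6II with 418 and HSP17.4 with 373 reads lie above the upper quartile of 259 reads for 600 bp, and HSP90.1 with 734 reads lies below the lower quartile of 785 for 2100 bp.

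Length bears on the share that a domain can cover. Each gene was therefore also set beside protein-coding genes outside the heat shock lists with a length within 10% of its own. Because the 7 genes were put together with the domain lists known, these ranks are a description and not a test. As large an H3K27me1 share was found in 41 of 3645 such genes for HSP90.1 (1.12%) and in 40 of 3490 for HSP70 (1.15%). The values were 3.46% for HSP70T-2, 5.34% for HSP21, 6.88% for HSP17.4 and 8.79% for HSP17.6II. HSP23.6-MITO was the most ordinary, with 222 of 1853 genes (12.0%). The longer genes stood higher among genes of their own length than the short ones did. Coverage of at least 50%, which all 7 genes had, was itself rarer among longer genes. It was reached by 4.27% of protein-coding genes in the length range of the HSP70 list, 2095 to 4809 bp. In the length range of the small heat shock protein list, 750 to 1329 bp, 13.3% reached it. The part of gene length in this order was not tested.

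No other H3K27me1 domain lay within 2 kb of any of the 7 genes. The nearest other H3K27me1 domain lay from 3190 bp (HSP23.6-MITO) to 19741 bp (HSP70T-2) beyond the gene, with a median of 13214 bp. None of the 14 annotated genes that flank the 7, the nearest on each side, had a base in an H3K27me1 domain. Among all protein-coding genes 22.3% were touched. For 7 of 7 genes both adjacent protein-coding genes were free of H3K27me1. This held for 582 of 1415 protein-coding genes (41.1%) of the same length range with at least 50% of the body covered, the 7 included, and their median distance to the next domain was 2469 bp (quartiles 846 and 6919 bp). HSP23.6-MITO, with 3190 bp, lay within these quartiles. The 1415 genes were chosen by length and coverage and not by place along the chromosome. What place adds to these differences was not tested. These distances are descriptions of positions along 1 genome.

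The flanking genes included close ones. AT3G46220 overlaps the low-coordinate end of HSP17.4 by 60 bp and had no base in the list. FYD (AT3G12570) ends 37 bp before HSP70, a tRNA gene (AT2G32110) lies 93 bp from HSP70T-2, and AT4G25210 starts 111 bp after HSP23.6-MITO. MEF1 (AT5G52630) lies 223 bp from HSP90.1 on one side and AT5G52650 393 bp on the other. The remaining flanking genes, AT3G12587, AT2G32130, AT3G46240, QWRF7, AT4G27660, AT4G27680, AT5G12010 and HSP17.6A, were 453 to 2573 bp away. Apart from FYD, described next, 13 of the 14 flanking genes had neither mark. Of all protein-coding genes, H3K27me1 touched 22.3%, 5mC 15.6% and both marks 6.96%, so that most genes have neither. The tRNA gene is only 75 bp long. The count is therefore a description of these places.

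A 5mC domain lay in or within 2 kb of 2 of the 7 genes, HSP70T-2 and HSP70, against 35.7% of all protein-coding genes. The one near HSP70, at chr3:3989851-3990600, was 750 bp wide with 554 reads (509 to 602). It ended 516 bp before HSP70 and lay inside FYD, of which it covered 30.1%. For the other 5 genes the nearest 5mC domain was between 16439 bp (HSP17.6II) and 63490 bp (HSP23.6-MITO) away. HSP90.1 had no 5mC domain within 18353 bp. No domain in the 5mC list had fewer than 97 reads, so that a gene without a domain had no called enrichment, and its 5mC level is not known.

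Of the 7 genes, 6 lay more than 5 Mb from the centre of the gene-poorest part of their chromosome, which marks the pericentromere. The same held for 19677 of 27444 protein-coding genes (71.7%). The distances of the 6 were 7.97 to 10.3 Mb, and HSP17.4 was closest with 2.93 Mb. HSP17.4 also had the highest share in H3K27me1 domains, 80.0%, without any 5mC domain within 21367 bp.

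The wider heat shock system was described by 5 lists of 65 genes, chosen as families by locus and not by their values, although earlier results of these data were known. They are 16 small heat shock protein genes, 18 of HSP70, 7 of HSP90, 3 of HSP100 and 21 heat shock factors. H3K27me1 touched 28 of the 65 genes (43.1%), and 14 had at least 50% of the body covered; both counts include the 7 genes. Without the 7 genes, 21 of 58 (36.2%) were touched, against 22.3% of all protein-coding genes, and 7 reached that level, against 7.62%. The median share over the 58 was 0%, as for all protein-coding genes. 5mC touched 6 of the 65 and, without the 7, 5 of 58 (8.62%), against 15.6% of all protein-coding genes. None of the 65 heat shock genes had at least 50% of its body in 5mC domains, against 3.69% of protein-coding genes.

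**Figure D3:**
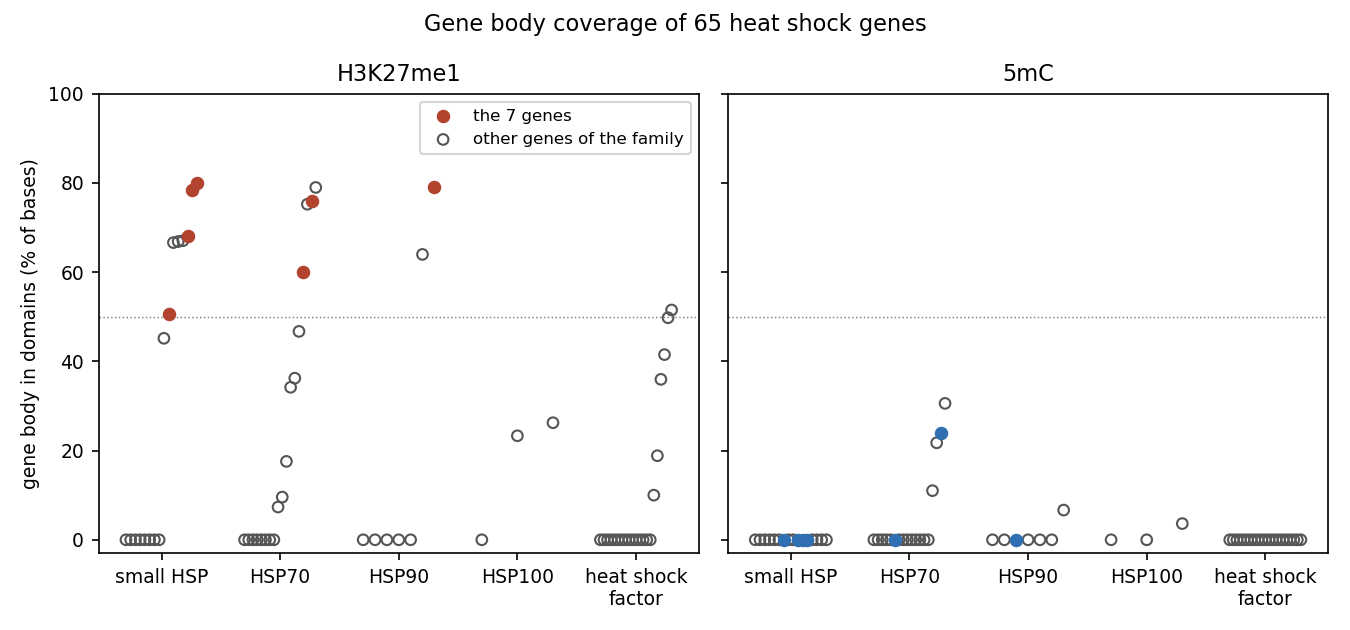
Share of the gene body in H3K27me1 (left) and 5mC domains (right), in percent of bases, for each of 65 heat shock genes by family; filled points are the 7 genes, open points the others, and the dotted line marks 50%. H3K27me1 shares reach 80.0%, while no 5mC share exceeds 30.6%.

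In the small heat shock protein list, H3K27me1 touched 4 of the 12 genes other than the 7, against 21.3% of protein-coding genes in the length range of the list. AT1G07400 had 67.0% of its body in a domain of 264 reads, AT5G51440 66.8% in one of 294 reads, AT1G53540 66.6% in one of 240 reads and AT1G52560 45.1% in one of 234 reads. At least 50% of the body was thus covered in 3 of 12, against 13.3% of genes of this length range. The others had no H3K27me1 domain in the body, among them HSP18.2 (AT5G59720), a cytosolic class I gene, and ATHSP22.0 (AT4G10250), whose protein resides in the endoplasmic reticulum. None of the 16 small heat shock protein genes had 5mC in the body, against 10.7% of protein-coding genes in this length range.

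In the HSP70 list, 8 of the other 16 genes were touched by H3K27me1, against 23.4% of protein-coding genes in the length range of this list. ERD2 (AT1G56410), a cytosolic HSP70, had 78.9% of its body in domains, and Hsp70-2 (AT5G02490) had 75.2%. These were the 2 of 16 with at least 50% covered, against 4.27% of genes of this length range. Hsp70b (AT1G16030) had 46.7% and BIP3 (AT1G09080), a chaperone of the endoplasmic reticulum, 34.2%. The HSP70-related gene HSP91 (AT1G79930) had 36.2%, the mitochondrial mtHsc70-1 (AT4G37910) 600 of 3416 bp, the chloroplast cpHsc70-2 (AT5G49910) 9.57% and AT1G11660 7.34%. HSC70-1 (AT5G02500), the constitutively expressed cytosolic HSP70, AT3G09440, BIP2 and cpHsc70-1 had none.

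5mC touched 4 of the 18 genes of the HSP70 list. Besides HSP70T-2, it covered 30.6% of BIP1 (AT5G28540), 21.7% of HSP91 and 450 of the 4089 bp of AT1G11660. With 3 of 16 genes other than HSP70T-2 and HSP70, the share of 18.8% was near the 17.5% of protein-coding genes in this length range. In HSP91 the 900 bp 5mC domain again lay wholly inside a 1500 bp H3K27me1 domain, with 450 bp and 150 bp of H3K27me1 beyond its ends. In AT1G11660 the marks did not overlap, and the nearest 5mC domain was 450 bp from the H3K27me1 domain. BIP1 had no H3K27me1 domain.

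Among the HSP90 genes, Hsp81.4 (AT5G56000) was the only other one with H3K27me1, over 63.9% of its body in domains of 469 and 247 reads. That made 1 of 6 touched and 1 of 6 covered to at least 50%, against 23.9% and 3.45% of genes of this length range; for 5mC, 1 of 6 stood against 20.8%. SHD (AT4G24190), the HSP90 of the endoplasmic reticulum, had 6.66% in a 5mC domain. CR88, the chloroplast HSP90, and HSP81-2 and HSP81-3, which are cytosolic, had no base in either list. In the HSP100 list, HSP101 (AT1G74310), which dissolves protein aggregates after heat, had 23.3% of its body in H3K27me1, and CLPB4 (AT2G25140), a mitochondrial relative, had 26.2%. Of genes of this length range, 23.7% were touched by H3K27me1 and 26.2% by 5mC. CLPB3 (AT5G15450) had 3.63% in a 5mC domain of 150 bp, the width of 1 calling window.

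Among the heat shock factors, H3K27me1 touched 6 of 21 (28.6%), against 22.0% of protein-coding genes of their length range, and 5mC none, against 12.3%. AT-HSFA7B (AT3G63350) had 51.5% of its body in H3K27me1, the 1 factor of 21 above 50%, against 6.65% of genes of this length range. HSFC1 (AT3G24520) had 49.8%. HSFA2 (AT2G26150), a factor made on heat that prolongs the response, had 41.5% in a domain of 533 reads. HSFA9 (AT5G54070), a factor of developing seeds, had 35.9% in a domain of 189 reads. HSFA3 (AT5G03720) had 18.8%, and HSFA1E (AT3G02990) 300 of 3001 bp. HSF1 (AT4G17750), HSF3 (AT5G16820) and HSFA1D (AT1G32330), which like HSFA1E belong to the class A1 that starts the response, had none in the body.

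**Figure D4:**
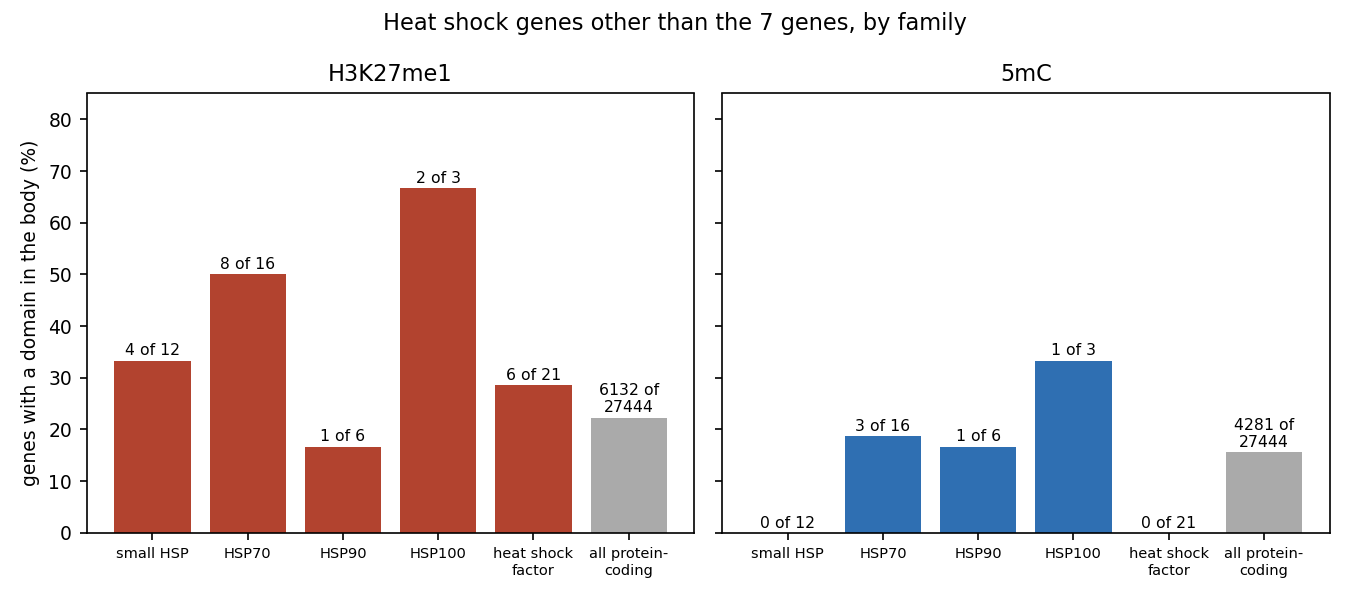
Percent of genes with at least 1 bp of the body in an H3K27me1 domain (left) or a 5mC domain (right) for the heat shock families without the 7 genes (coloured bars) and for all protein-coding genes (grey bars); the numbers are genes touched of genes in the list. H3K27me1 touches 8 of 16 HSP70 genes and 22.3% of all genes, and 5mC touches 0 of 12 small heat shock protein genes and 15.6% of all genes. The grey bars take genes of all lengths. In the length range of the small heat shock protein list, 5mC touches 10.7% of genes, and in that of the HSP70 list H3K27me1 touches 23.4%.

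In 4 places, 2 genes of a list are adjacent on the chromosome, and in each of them H3K27me1 domains lay in 1 gene of the pair. Of all protein-coding genes 22.3% were touched, and no share over all adjacent pairs is given here. The 4 pairs are therefore listed as single cases, not as a pattern. HSP17.6II had 68.1% of its body covered, and HSP17.6A, 845 bp away, had 0%. Hsp70-2 had 75.2%, and HSC70-1, 917 bp away, had 0%. Hsp81.4 had 63.9%, and HSP81-3, 1085 bp away, had 0%. HSP91 had 36.2%, and Hsp70-15 (AT1G79920), 623 bp away, had 0%. These pairs are related in sequence, and how reads that match several places were handled is not given in the sources used here, so that the part of such reads in these differences was not tested.

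Of the 34 H3K27me1 domains that touched the 65 genes, 29 lay wholly inside the body, as did 7 of 7 5mC domains. Of all domains that touched a protein-coding gene, 82.8% lay wholly inside one for H3K27me1 and 76.8% for 5mC. The 34 domains were 300 to 2100 bp wide with a median of 411 reads per kb, within a list whose median is 447 reads per kb. In 6 of the 7 genes the domain lay wholly inside, and of 1206 protein-coding genes in the length range of the 7 that had at least 50% of the body covered by 1 domain, 749 (62.1%) held it wholly.

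Counting also the 2 kb on either side, 32 of the 58 heat shock genes other than the 7 (55.2%) had an H3K27me1 domain in the body or nearby, against 43.9% of all protein-coding genes, and 20 (34.5%) had a 5mC domain, against 35.7%. Over all 65 genes, 22 (33.8%) had a 5mC domain in the body or within 2 kb, near the 35.7% of all protein-coding genes. In 16 of them it lay only outside the body. Of all protein-coding genes, 15.6% had a 5mC domain in the body, as part of the 35.7%. The rest of the 35.7% is the background for the 16, which were not read as a result about these genes.

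The genes outside the lists most like each of the 7 were sought by the shares of the body in H3K27me1 and 5mC domains, among protein-coding genes with a length within 10%. Over these 2 measures the closest to HSP70 were WAKL4 (76.0% in H3K27me1) and GH9A3 (75.4%), both without 5mC. HSP23.6-MITO had the same shares as KTI1, 50.6% and 0%, followed by AT3G06840. HSP17.4 matched AT5G42325 (80.0%) and then AT2G33090 (78.4%), and HSP21 was closest to AT4G19580 and AT4G17200 (78.5% each). HSP17.6II lay next to AT2G47530 (68.3%) and AT1G76910 (67.6%), and HSP90.1 next to AT5G03435 (78.9%) and AT3G05610 (79.3%). For HSP70T-2, with both marks, the closest were AT3G31900 (60.5% in H3K27me1 and 25.5% in 5mC) and AT5G37010 (63.5% and 25.4%), which differed from it by 2.10 and 5.04 percentage points in all.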

How the data were processed

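The authors deposited 1 domain list per mark with a whole-number count of reads per domain. The submitters' processing notes name the aligner Bowtie, the domain caller SICER and the build TAIR10. Versions, thresholds, how input was used and whether replicates were pooled are not stated there. The H3K27me1 list held 13068 domains in steps of 300 bp with 12706852 reads, and the 5mC list 12238 domains in steps of 150 bp with 28021211 reads; these sums are not library depths. Positions are printed counting from 1.

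Gene positions were taken from a RefSeq table (assembly TAIR10.1), which lacks strand and exons. Its name differs from the build of the lists, so it was checked by shifting pseudogenes by up to 5000 bp against the domains: the best overlap was at offset 0 for both marks on all 5 chromosomes. No coordinate of the table is printed. Overlaps were computed in Python 3.11.15 with pandas 2.3.3 and numpy 2.4.6 and tested on simulated data. Exact Poisson intervals (95%, scipy 1.17.1) cover counting error only.

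The genes and lists were chosen with earlier results of these data known, and no test was made. Named genes are the 7 genes, the nearest gene on each side, genes in the same domains, genes of the heat shock lists touched by a domain, and the 2 genes most alike in coverage for each of the 7; list genes named as free of domains were chosen after their values were seen.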

Additional observations from a re-analysis of the deposited data

How the results depend on the processing

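The count of the 7 genes with H3K27me1 was 7 with at least 50% of the body required, and 7 within 1000 or 5000 bp of the gene. With only the domains above the list's median in reads per kb it was 4, in the body and within 2 kb alike, and with only domains of at least 1000 bp it was 3. The choice of wider domains leaves out HSP17.4, HSP17.6II, HSP23.6-MITO and HSP21, whose domains are narrower, and that of denser ones HSP70T-2, HSP23.6-MITO and HSP90.1. The genes left out by width are only 750 to 1185 bp long, so that their loss under this choice was largely set by gene length. HSP70 kept its H3K27me1 domain under both choices. For 5mC, the count in the body was 1, and it was 0 with at least 50% of the body, 0 with denser domains and 0 with wider ones; within 2 kb it was 2, and 0 with denser or wider domains. Over the 65 heat shock genes, H3K27me1 touched 28, with 14 at 50% of the body, 10 with denser and 8 with wider domains; 5mC touched 6, with 0 at 50% of the body, 1 with denser and 1 with wider domains. Leaving out the 7 genes, an alternative added after the data were seen, gave 21 and 5. The share of protein-coding genes touched was 21.4% (H3K27me1) and 10.7% (5mC) in the length range of the 7. It was 21.1% and 12.2% more than 5 Mb from the gene-poorest part. No such share is given for denser or wider domains, or for 1000 or 5000 bp around the gene, so those counts stand without a background. No paired analysis was possible because the lists hold no value per replicate; for the same reason no replicate could be left out.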
